A study of Mus musculus with 22 samples.

Results

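Genes that steer T cells into mucosal tissue or hold them there, 10 in all, were examined in CD4+ T cells recovered from mouse lymph nodes: the chemoattractant receptors Gpr15 and Ccr9, the integrin alpha chains Itgae, Itga4 and Itgal, the integrin beta chains Itgb7, Itgb1 and Itgb2, the hyaluronan receptor Cd44 and the selectin ligand Selplg. They were chosen by symbol from the 55011 genes of the count table, and all 10 had enough counts to be tested. Libraries were made by Smart-seq, in which polyadenylated RNA of small sorted samples is copied to cDNA, amplified and sequenced without molecular identifiers.

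The comparison was of 3 groups. In the FOXP3 group, CD4+ T cells from 10-day-old scurfy mice carried a vector with human FOXP3 and the surface reporter LNGFR. Scurfy mice lack functional Foxp3, the transcription factor that defines regulatory T (Treg) cells. The WT Treg group received CD4+CD25+ CD45.1+ cells instead. In the LNGFR group, scurfy CD4+ T cells carried the same reporter in an empty vector. The recipients of every group were scurfy mice given cyclophosphamide at 50 mg/kg at 10 days of age, cells on day 14, and 1000 IU per g of human IL-2, given each day over 5 days and later once a week. At day 50, 1000 LNGFR+ or CD45.1 cells per library were sorted. The labels give every sample the strain C57BL/6 and a scurfy genotype, WT Treg included, and name the FOXP3 and WT Treg samples Treg cells and the LNGFR samples conventional T cells. Cells were taken from lymph nodes alone, so no mucosal tissue was measured.

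The 22 libraries carry 11 codes in their titles, with 2 libraries per code, and the libraries of a code were summed. There were 5 codes of FOXP3 (F1, F2, F5, N2, N3), 3 of WT Treg (E2, G4, L1) and 3 of LNGFR (G1, G2, G3). Whether a code stands for 1 mouse is not stated in the labels, so the p-values measure the spread between codes, part of which may be technical. Every LNGFR code begins with G and no FOXP3 code does, so an effect of the vector and one of what the letters mark cannot be told apart. WT Treg cells differed from both other groups in donor, vector and sort marker at once.

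A T cell reaches the gut wall in steps that use these molecules in turn. Selplg (PSGL-1) lets it roll on selectins, Ccr9 and Gpr15 sense chemoattractants of the small intestine and of the colon, and integrins then stop the cell on the vessel wall. Integrins work as pairs of an alpha and a beta chain: alpha 4 beta 7 binds MAdCAM-1 on gut vessels, alpha 4 beta 1 (VLA-4) binds VCAM-1, alpha L beta 2 (LFA-1) binds ICAMs on most vessels, and alpha E beta 7 (CD103) binds E-cadherin on epithelium. TGF-beta is known to raise Itgae and Gpr15, and retinoic acid is known to raise Ccr9 and alpha 4 beta 7.

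Code totals ran from 8344444 to 10376164 counts in FOXP3, from 1154626 to 7088371 in WT Treg and from 3109515 to 7881352 in LNGFR. There were 3 codes that stood apart. In WT Treg code E2, 54.8% of counts fell on gene models derived from repeats, against 6.55% in LNGFR code G1 and 2.51% to 4.41% in the other 9 codes. FOXP3 code N3 had a summed level of 12 B cell markers of 9867 CPM (counts scaled to a common library total), where the other FOXP3 codes had 1171 to 2378 CPM. N3 and G1 also had the highest sums of 14 myeloid and dendritic markers, at 6432 and 3381 CPM, against 204 to 893 CPM elsewhere. Of these sums H2-Ab1, which B cells also express, made up 6267 CPM in N3 and 2878 CPM in G1. Cst3 of the same list reached 218 CPM in FOXP3, 151 CPM in WT Treg and 450 CPM in LNGFR codes. Lyz2, Csf1r, Cd68, Adgre1 and Cd14 were at most 10.0 CPM in any FOXP3 code and 10.8 CPM in any LNGFR code. In WT Treg codes Lyz2 reached 55.4 CPM and Adgre1 22.4 CPM. The 8 T cell markers were detected in every group and summed to 3400 to 5639 CPM in FOXP3, 2090 to 5729 CPM in WT Treg and 4853 to 7742 CPM in LNGFR. Within its group, N3 was the lowest code for 7 of the 10 genes, E2 for 9 and G1 for 9. What part these codes' composition has in the results was not tested, and results are given without E2, G1 and N3 where that changes a call of a gene described below. These 3 codes were picked by their values in these data. As they are mostly the lowest of their groups, leaving them out narrows the spread, so calls gained in this way are descriptions.

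Stretches of sequence before Gpr15 and Ccr9 are shown because these were the 2 genes called in a comparison. RefSeq promoter windows of GRCm38.p6 (250 bases before a start to 50 after it) were found for 6 of the 10 genes, and both strands were searched for TGTTTAC (forkhead), GCGTG (aryl hydrocarbon receptor core), AGGTCA (nuclear receptor motif), GTCTG (SMAD) and TGTGGT (RUNX), none of which lies within another. Capitals mark matches, and bases inside exons of GENCODE M21 are left out except at the RUNX matches of Gpr15. The Gpr15 stretches are chr16:58719071-58719122 and chr16:58718937-58718966 on the minus strand, and the Ccr9 stretch is chr9:123766961-123767168 on the plus strand.
Gpr15 upstream: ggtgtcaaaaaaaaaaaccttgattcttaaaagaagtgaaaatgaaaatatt
Gpr15 RUNX matches: agaaagaaaACCACAACCACAgccaatacc
Ccr9 upstream: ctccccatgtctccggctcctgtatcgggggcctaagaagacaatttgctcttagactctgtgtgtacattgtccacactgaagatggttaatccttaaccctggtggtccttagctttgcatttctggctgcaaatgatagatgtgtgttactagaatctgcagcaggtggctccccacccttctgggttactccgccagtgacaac
The Gpr15 window held the RUNX letters 2 times side by side, read on the reverse strand as ACCACA, and 1 SMAD match. The Ccr9 window held 1 SMAD match, after the start and outside the bases shown. These letters were not particular to the 2 genes. The Itga4 window held 1 RUNX and 1 SMAD match, and the Itgb7 and Itgb1 windows held 2 and 3 SMAD matches. Aryl hydrocarbon receptor letters were found in the Itga4 window alone. Of the 32851 RefSeq windows, 16.8% held the RUNX letters, 49.6% the SMAD letters and 32.4% the aryl hydrocarbon receptor letters. None of the 6 windows held the forkhead letters, which 3.65% of all windows hold.

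Gpr15 was higher in FOXP3 than in LNGFR cells, and both Gpr15 and Ccr9 were higher in WT Treg than in LNGFR cells. Itgae was high in FOXP3 and WT Treg and low in LNGFR, with 1 LNGFR code at a small fraction of the others, but it passed the test in no comparison. The alpha 4, alpha L, beta 1, beta 2 and beta 7 chains, Cd44 and Selplg overlapped between groups and passed the test in no comparison. Differences are log2 fold changes with their standard errors from edgeR's quasi-likelihood test over 15462 genes, and a gene is called where its Benjamini-Hochberg adjusted p is under 0.05.

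Over the 10 genes, 1 was called in FOXP3 against LNGFR, where 0.543% of all tested genes were called, and 2 had groups that did not overlap, as had 9.02% of all genes. In WT Treg against LNGFR 2 were called, against 1.30% of all genes, and 3 did not overlap, against 16.6%. In FOXP3 against WT Treg edgeR called 0 of the 10 (0.259% of all genes); 2 had an unadjusted p under 0.05 (16.5% of all genes), DESeq2 called 1 and limma 2, and 1 did not overlap (12.4% of all genes). The median log2 fold changes of the 10 genes were 0.18, 0.27 and 0.09 in these comparisons, beside -0.02, 0.08 and 0.01 over all genes. The comparisons share their groups and are not independent. For the counts given below by other rules, the share of all genes in FOXP3 against LNGFR, WT Treg against LNGFR and FOXP3 against WT Treg was 10.3%, 14.8% and 16.5% at an unadjusted p under 0.05, 2.64%, 4.72% and 12.3% called by DESeq2, and 6.68%, 5.63% and 6.78% called by limma voom with quality weights. DESeq2 was run on the 46911 genes with a count. Its shares are of the 13888, 17516 and 23879 genes to which it gave an adjusted p, a different set in each comparison.

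**Figure D1:**
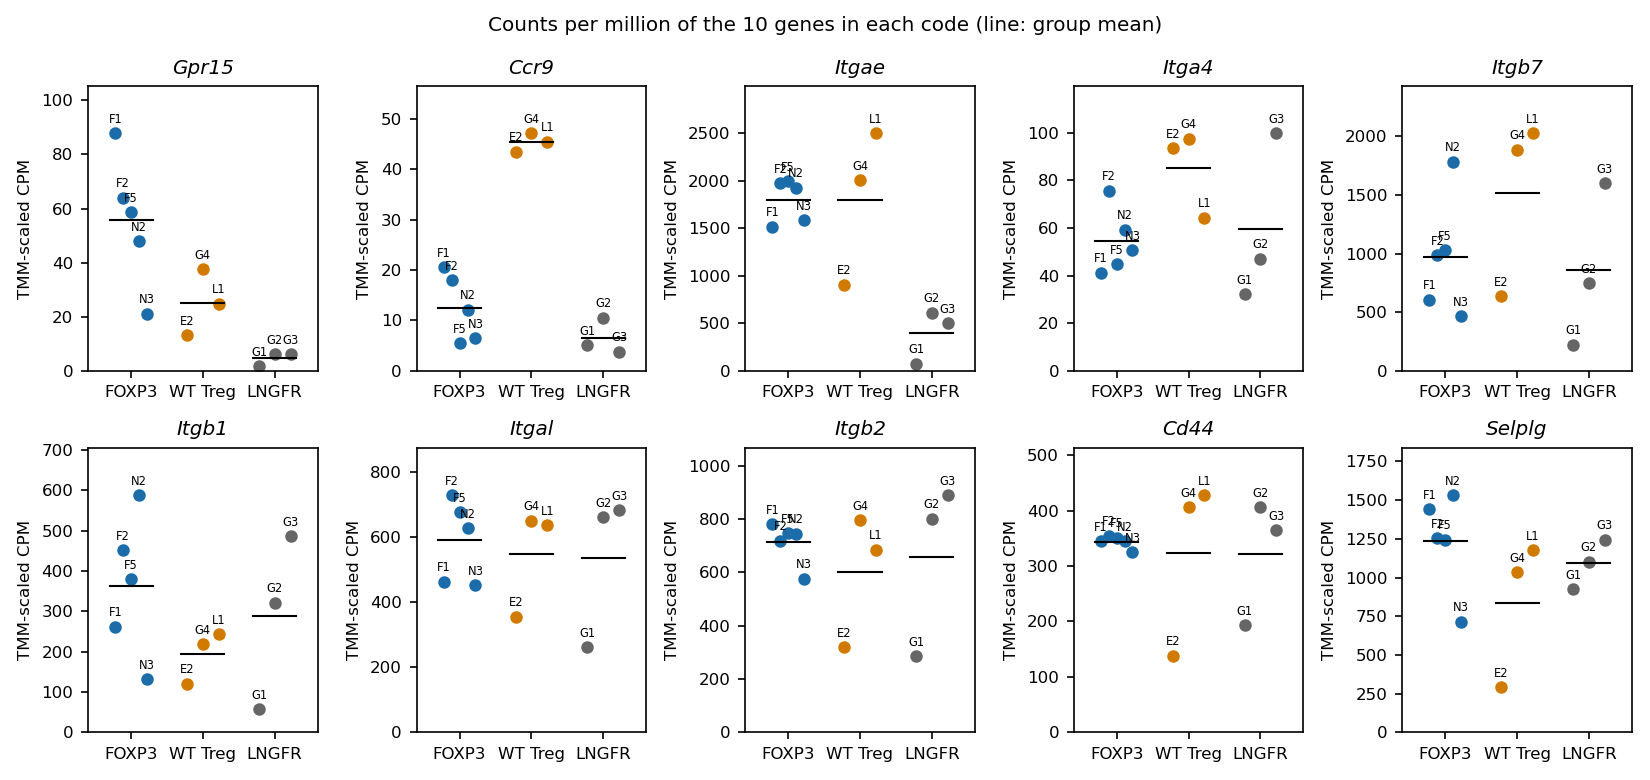
Levels of the 10 genes in each code, as TMM-scaled CPM on linear axes from 0, with FOXP3, WT Treg and LNGFR from left to right. Each point is 1 code, with its name above it, and lines are group means; Gpr15 has its highest points in FOXP3 (21.1 to 87.7 CPM) and Ccr9 in WT Treg (43.4 to 47.1 CPM).

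Gpr15 is a receptor for a chemoattractant of the colon and other barrier tissue, in the mouse used above all by Treg cells of the colon. Its row is ENSMUSG00000047293.7, a gene with a single exon at chr16:58717433-58719070 (GRCm38). It had 87.7, 64.1, 58.6, 47.9 and 21.1 CPM in FOXP3 codes F1, F2, F5, N2 and N3. It had 13.2, 37.5 and 24.9 CPM in WT Treg codes E2, G4 and L1, and 1.68, 6.08 and 6.11 CPM in LNGFR codes G1, G2 and G3. Every FOXP3 and every WT Treg code lay above every LNGFR code, and FOXP3 overlapped WT Treg through N3 alone. In these bulk samples, fewer cells that express a gene and less of its RNA per cell cannot be told apart.

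Gpr15 rose in FOXP3 against LNGFR by 3.52 ± 0.54 on the log2 scale (adjusted p = 0.0116, edgeR's quasi-likelihood test with Benjamini-Hochberg adjustment). It rose in WT Treg against LNGFR by 2.44 ± 0.55 (adjusted p = 0.0496, same test). FOXP3 was above WT Treg by 1.08 ± 0.47 without being called (adjusted p = 0.262), and this difference was 1.04 ± 0.24 and called without E2, G1 and N3 (adjusted p = 0.0221, edgeR). The FOXP3 call was lost without LNGFR code G2 (adjusted p = 0.119) or G3 (adjusted p = 0.0885). The WT Treg call was lost under 13 of 24 other settings: without any 1 of F1, F2, F5, N2, G1, G2, G3, G4 and L1 (adjusted p = 0.0548 to 0.252), and with adjusted p up to 0.343 when codes starting with G alone were used. The log2 fold change stayed above 0 under all of these settings, at 2.86 to 3.84 for FOXP3 and 1.88 to 2.95 for WT Treg. Both calls were also lost with the number in the code as a replicate block, an alternative chosen after seeing the data. The log2 fold changes were then 3.28 for FOXP3 and 1.69 for WT Treg (adjusted p = 0.157 and 0.358, edgeR).

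The 2 libraries of a code gave like values for Gpr15. Their ratio, higher over lower, had a median of 1.14 and a maximum of 1.66 over the 9 codes other than E2 and G1. The LNGFR values rest on 94 counts in all, against 2634 in FOXP3 and 429 in WT Treg. The last 204 bases of the Gpr15 exon overlap Cpox on the other strand, and as the strand setting of the counting is not given in the sources used here, reads from the shared bases cannot be told apart.

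Ccr9 is the receptor for CCL25, the chemokine of the small intestine. Its row is ENSMUSG00000029530.16 at chr9:123678439-123784330 (GRCm38, plus strand). It had 20.5, 18.0, 5.5, 12.1 and 6.53 CPM in FOXP3 codes F1, F2, F5, N2 and N3. It had 43.4, 47.1 and 45.4 CPM in WT Treg codes E2, G4 and L1, and 5.04, 10.6 and 3.84 CPM in LNGFR codes G1, G2 and G3. The WT Treg codes lay close together and above all others, E2 included, while FOXP3 and LNGFR overlapped. Ccr9 exons share 1932 bases with AC165425.1 and 22 with Slc6a20a on the other strand, and 269 with Gm17200 on the same strand. Lztfl1 lies wholly inside the Ccr9 gene on the other strand, with 1632 counts against 1374 for Ccr9, but no shared exon bases. As the strand setting is not given, reads from shared bases cannot be told apart.

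Ccr9 rose in WT Treg against LNGFR by 2.80 ± 0.53 on the log2 scale (adjusted p = 0.0197, edgeR's quasi-likelihood test with Benjamini-Hochberg adjustment). FOXP3 lay below WT Treg by a log2 fold change of -1.86 ± 0.43, with a 95% interval of -2.77 to -0.94, and was not called in this test (adjusted p = 0.0842, edgeR). It was called by DESeq2 (-1.89, adjusted p = 0.00761) and limma voom with quality weights (-2.01, adjusted p = 0.00340). FOXP3 against LNGFR gave 0.94 ± 0.46, with a 95% interval of -0.06 to 1.94 (adjusted p = 0.528, edgeR). The WT Treg call was lost in 7 of 24 other settings, among them those without LNGFR code G1 or G3 or without WT Treg code G4 or L1, with adjusted p of 0.0681 to 0.127. This call was also lost with the number in the code as a replicate block, chosen after seeing the data (2.43, adjusted p = 0.112, edgeR). Ccr9 was the gene whose libraries differed most: over the 9 codes other than E2 and G1 the higher was up to 3.78 times the lower (N2), with a median of 1.87. WT Treg code G4, for one, had 27.6 and 65.8 CPM in its libraries, and LNGFR code G1 had 5.65 and 0 CPM, so the values of Ccr9 per code are less exact than those of Gpr15.

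**Figure D2:**
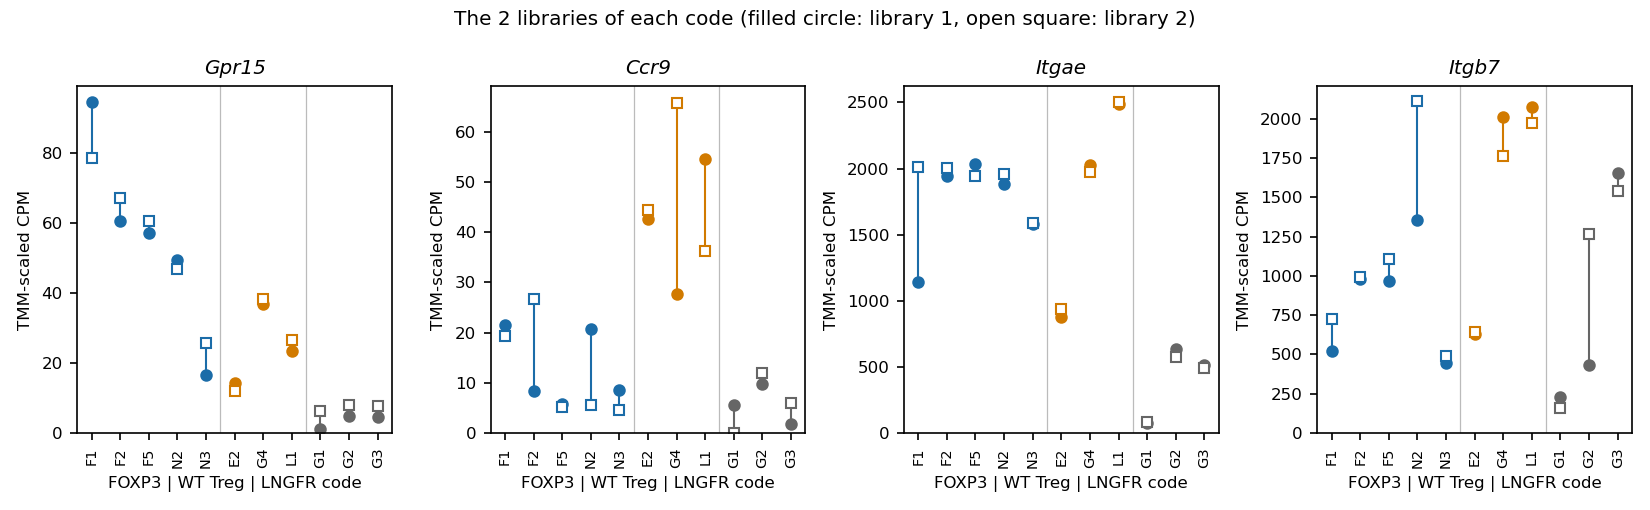
The 2 libraries of each code for Gpr15, Ccr9, Itgae and Itgb7, as TMM-scaled CPM on linear axes from 0. Filled circles are library 1, open squares library 2 and a line joins them; Ccr9 scatters most, with N2 at 20.8 and 5.5 CPM, and Gpr15 of code G1 at 1.13 and 6.29 CPM.

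Set against each other within a code, the 2 receptors had a higher ratio of Gpr15 to Ccr9 in every FOXP3 code than in any other. This pair was chosen after its values were seen, so its ratio is a description. The log2 ratio of Gpr15 to Ccr9 was 2.20 ± 0.69 in FOXP3 (SD, n = 5 codes), -0.97 ± 0.70 in WT Treg and -0.57 ± 1.15 in LNGFR (SD, n = 3 codes each). FOXP3 codes ran from 1.69 to 3.41, above the highest WT Treg code at -0.33 and the highest LNGFR code at 0.67.

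Itgae is the alpha E chain of CD103, which tethers T cells to epithelium and is carried by many Treg cells. Its row is ENSMUSG00000005947.11 at chr11:73090583-73147446 (GRCm38, plus strand). It had 1515, 1975, 1994, 1925 and 1584 CPM in FOXP3 codes F1, F2, F5, N2 and N3. It had 904, 2002 and 2496 CPM in WT Treg codes E2, G4 and L1, and 77.0, 613 and 501 CPM in LNGFR codes G1, G2 and G3. Every FOXP3 and WT Treg code lay above every LNGFR code, and the 5 FOXP3 codes fell inside the range of the 3 WT Treg codes.

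The log2 fold change of Itgae was 2.18 ± 0.57 for FOXP3 against LNGFR (adjusted p = 0.130) and 2.18 ± 0.61 for WT Treg against LNGFR (adjusted p = 0.129, edgeR's quasi-likelihood test with Benjamini-Hochberg adjustment), so neither was called. Without E2, G1 and N3 the values were 1.73 ± 0.15 (adjusted p = 4.03e-05) and 2.02 ± 0.17 (adjusted p = 2.61e-05, edgeR), and both were called. They were also called by DESeq2 (adjusted p = 0.00150 and 0.00515) and by limma voom with quality weights (adjusted p = 0.00160 and 0.00141). FOXP3 against WT Treg gave 0.00 ± 0.52, with a 95% interval of -1.13 to 1.12, and the sign of this value turned under 10 of 23 settings. The 8 markers of CD8 T, natural killer and innate-like cells, cells that can also carry CD103, summed to 175 to 251 CPM in FOXP3, 69.8 to 136 CPM in WT Treg and 192 to 702 CPM in LNGFR. The markers of this list did not move together: Nkg7 averaged 169 CPM in FOXP3, 43.3 CPM in WT Treg and 243 CPM in LNGFR, and Cd8b1 6.58, 21.8 and 11.1 CPM in the same order. Their part in the Itgae values was not tested.

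Haspin, a kinase of mitotic chromatin, was the gene whose log2 CPM followed that of Itgae most closely over the 11 codes (Pearson r = 0.988 among 8856 genes compared, which share libraries and depth). Haspin lies wholly inside the Itgae gene, at chr11:73135485-73138294 on the other strand. It had 80.5 ± 5.22 CPM in FOXP3 (SD, n = 5), 71.0 ± 24.6 CPM in WT Treg and 29.2 ± 15.1 CPM in LNGFR (SD, n = 3 each). It was called in none of the comparisons (adjusted p = 0.104 for FOXP3 and 0.163 for WT Treg against LNGFR, edgeR). No exon of Haspin overlaps an exon of Itgae in GENCODE M21. Since the strand setting is not given in the sources used here, reads of unspliced Itgae RNA at Haspin cannot be told apart from those of Haspin.

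Itga4, the alpha 4 chain, is shared by the gut integrin alpha 4 beta 7 and by VLA-4. It had 41.2, 75.8, 44.8, 59.4 and 50.7 CPM in FOXP3 codes F1, F2, F5, N2 and N3, 93.5, 97.5 and 64.3 CPM in WT Treg codes E2, G4 and L1, and 32.3, 47.1 and 99.7 CPM in LNGFR codes G1, G2 and G3. The ranges overlapped in every pair of groups. Its largest difference was that of FOXP3 against WT Treg, with a log2 fold change of -0.64 ± 0.35 (adjusted p = 0.397, edgeR's quasi-likelihood test with Benjamini-Hochberg adjustment). Itga4 was the gene with the lowest level per length but for Ccr9 in FOXP3 and WT Treg, at 3.89 and 6.09 CPM per kb of exon.

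Itgb7, the beta chain of both alpha 4 beta 7 and CD103, had 606, 988, 1028, 1783 and 466 CPM in FOXP3 codes F1, F2, F5, N2 and N3. It had 634, 1886 and 2024 CPM in WT Treg codes E2, G4 and L1, and 223, 747 and 1597 CPM in LNGFR codes G1, G2 and G3. Each group held codes at several times the level of others, and all 3 ranges overlapped. Its log2 fold changes were 0.19 ± 0.60 for FOXP3 and 0.82 ± 0.67 for WT Treg, each against LNGFR, while FOXP3 against WT Treg gave -0.64 ± 0.59, none of them called (adjusted p = 0.924, 0.584 and 0.631, edgeR's quasi-likelihood test with Benjamini-Hochberg adjustment). In LNGFR code G2 its libraries differed by 2.91 times.

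Itgb1, the beta chain of VLA-4 and of most matrix receptors, ran the other way in WT Treg. It had 262, 452, 380.2, 588 and 132 CPM in FOXP3 codes F1, F2, F5, N2 and N3, 121, 218 and 243 CPM in WT Treg codes E2, G4 and L1, and 57.8, 322 and 486 CPM in LNGFR codes G1, G2 and G3. Of the 5 FOXP3 codes, 4 lay above every WT Treg code, and N3 lay between them. The log2 fold change of FOXP3 against WT Treg was 0.89 ± 0.60 and was not called (adjusted p = 0.50, edgeR's quasi-likelihood test with Benjamini-Hochberg adjustment).

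**Figure D3:**
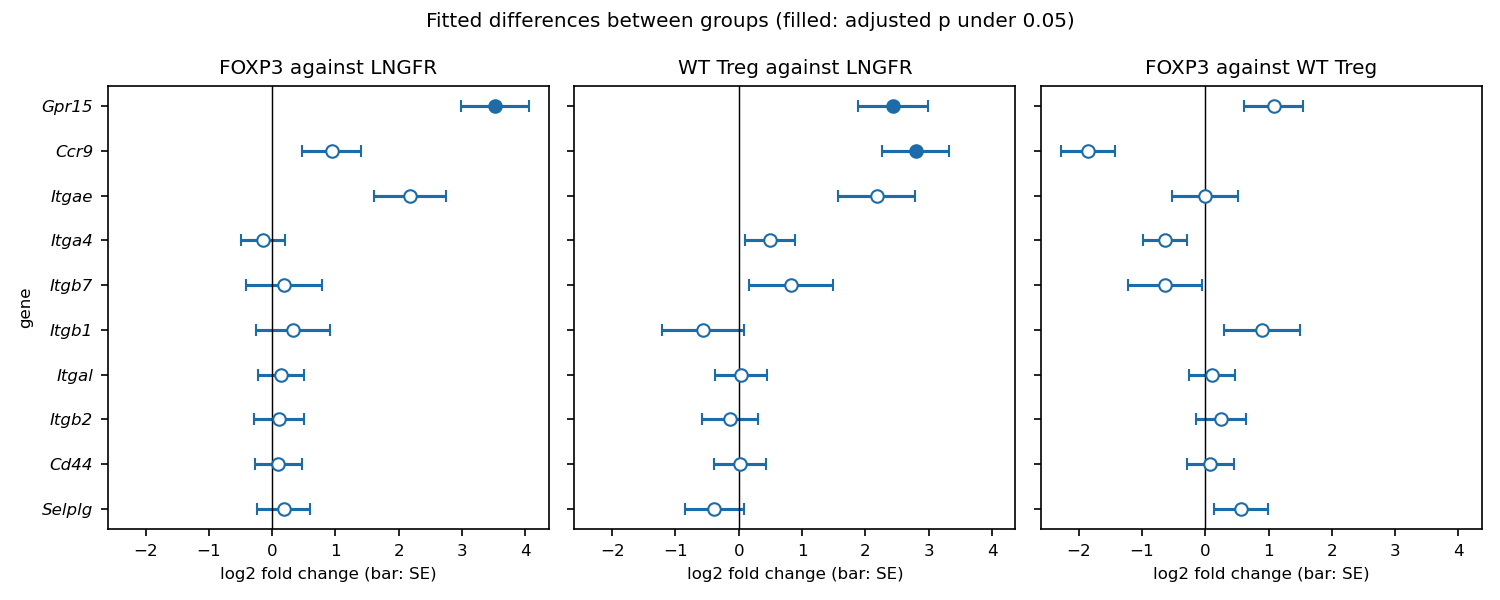
Log2 fold changes of the 10 genes in the 3 comparisons, with bars of 1 standard error to each side; filled points are called at an adjusted p under 0.05. Gpr15 is called against LNGFR in FOXP3 (3.52) and WT Treg (2.44) and Ccr9 in WT Treg (2.80), and all open points lie nearer to 0 than these.

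The balance of the beta chains was more even than either level. The log2 ratio of Itgb7 to Itgb1 was 1.44 ± 0.28 in FOXP3 (SD, n = 5), 2.85 ± 0.40 in WT Treg and 1.63 ± 0.37 in LNGFR (SD, n = 3 each). WT Treg codes ran from 2.39 to 3.11, above FOXP3 (1.13 to 1.82) and LNGFR (1.22 to 1.95), and E2, G1 and N3 kept to their groups. Ratios carry no test here.

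Of the pairs that form heterodimers, Itgae to Itgb7 separated LNGFR from the others. Its log2 ratio was 1.03 ± 0.61 in FOXP3 (SD, n = 5), 0.30 ± 0.21 in WT Treg and -1.16 ± 0.76 in LNGFR (SD, n = 3 each). The highest LNGFR code reached -0.28, below the lowest FOXP3 code at 0.11 and the lowest WT Treg code at 0.09. The ratios of Itga4 to Itgb7 (-4.04, -4.00 and -3.59 on average in FOXP3, WT Treg and LNGFR), Itga4 to Itgb1 (-2.60, -1.15 and -1.97) and Itgal to Itgb2 (-0.29, -0.08 and -0.26) overlapped between groups.

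**Figure D4:**
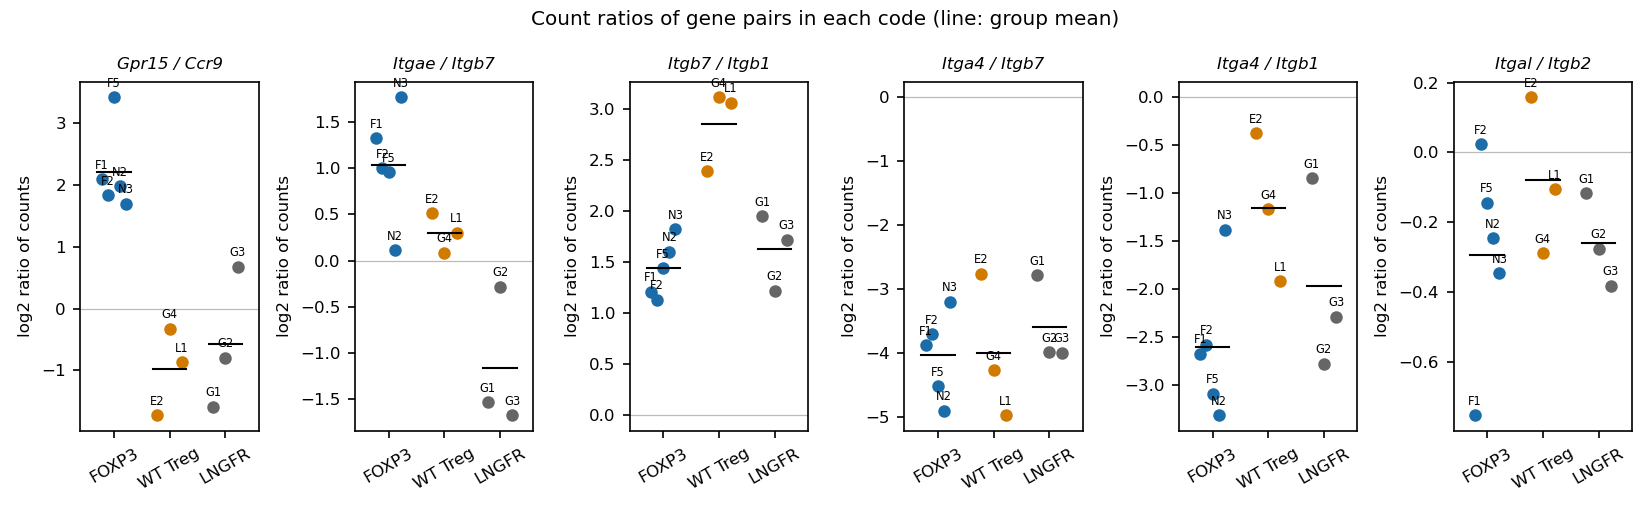
Log2 ratios of 6 gene pairs within each code, computed from counts, with FOXP3, WT Treg and LNGFR from left to right. Each point is 1 code and lines are group means; the Gpr15 to Ccr9 ratio is highest in FOXP3 (1.69 to 3.41), the Itgb7 to Itgb1 ratio in WT Treg (2.39 to 3.11), and the Itgae to Itgb7 ratio is lowest in LNGFR (-1.67 to -0.28).

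Itgal and Itgb2 form LFA-1, the integrin of general lymphocyte adhesion. Itgal had 590.4 ± 126 CPM in FOXP3 (SD, n = 5), 548 ± 167 CPM in WT Treg and 536 ± 237 CPM in LNGFR (SD, n = 3 each). Itgb2 had 714 ± 80.2 CPM in FOXP3, 600.1 ± 250.1 CPM in WT Treg and 659 ± 327 CPM in LNGFR. The highest code was 3.12 times the lowest for Itgb2 over all 11 codes and 1.30 times over the 8 codes other than E2, G1 and N3. For Itgal these ratios were 2.78 and 1.58. Their log2 fold changes lay between -0.13 and 0.25 in the 3 comparisons, none called, with 95% intervals that reached from -1.08 to 1.10.

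Cd44, a marker of activated and memory T cells that binds hyaluronan, was the most even of the 10 genes over the 8 codes other than E2, G1 and N3. It had 345, 354, 351, 345 and 324 CPM in FOXP3 codes F1, F2, F5, N2 and N3, 138, 406 and 428 CPM in WT Treg codes E2, G4 and L1, and 193, 406 and 364 CPM in LNGFR codes G1, G2 and G3. Its highest code was 3.10 times its lowest over 11 codes and 1.24 times without E2, G1 and N3. Its log2 fold changes of 0.02 to 0.10 changed sign under some settings in each comparison.

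Selplg, whose sugar-modified form binds P-selectin, had 1441, 1254, 1245, 1533 and 714 CPM in FOXP3 codes F1, F2, F5, N2 and N3. It had 291, 1036 and 1176 CPM in WT Treg codes E2, G4 and L1, and 926, 1104 and 1244 CPM in LNGFR codes G1, G2 and G3. Apart from N3, the FOXP3 codes lay above every code of the other groups, F5 by little, and N3 itself lay below all codes but E2. The log2 fold change was 0.57 ± 0.42 for FOXP3 against WT Treg and 0.18 ± 0.42 against LNGFR (adjusted p = 0.551 and 0.894, edgeR's quasi-likelihood test with Benjamini-Hochberg adjustment).

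Per kb of exon (union of GENCODE M21 exons), the order of levels differed between groups at the top. In FOXP3, Itgae led with 393 CPM per kb, followed by Itgb7 with 352, Selplg with 290 and Itgb2 with 234 CPM per kb. The code ranges of the first 3 overlapped, and no test was run. In WT Treg, Itgb7 led with 547 CPM per kb before Itgae with 393 CPM per kb, and their code ranges overlapped too. In LNGFR, Itgb7 with 309 CPM per kb was followed by Selplg with 255 and Itgb2 with 216 CPM per kb, and Itgae had 86.7 CPM per kb. Gpr15 stood at 34.1 CPM per kb in FOXP3, 15.4 in WT Treg and 2.82 in LNGFR. Ccr9 came last in each group, at 1.22, 4.42 and 0.632 CPM per kb, and its annotated exons are long, at 10260 bases, which lowers this value.

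Mouse Foxp3, the gene that is mutated in scurfy mice, had 218, 313, 217, 232 and 162 CPM in FOXP3 codes F1, F2, F5, N2 and N3. It had 704, 1581 and 1630.1 CPM in WT Treg codes E2, G4 and L1, and 42.7, 72.7 and 143 CPM in LNGFR codes G1, G2 and G3. The 3 groups did not overlap, and human FOXP3 RNA was not analysed here. The processing notes name only a mouse build. Whether reads of the human FOXP3 vector were counted on the mouse Foxp3 row of the FOXP3 group was not tested. The log2 fold change was 1.40 ± 0.43 for FOXP3 against LNGFR (adjusted p = 0.210), 3.92 ± 0.52 where WT Treg was set against LNGFR (adjusted p = 0.00191) and -2.52 ± 0.40 between FOXP3 and WT Treg (adjusted p = 0.0192, edgeR's quasi-likelihood test with Benjamini-Hochberg adjustment).

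Among 11 tested of 15 other integrin alpha chains, 1 was called: Itga6, the alpha chain of laminin receptors, rose in WT Treg against LNGFR by 2.15 ± 0.39 on the log2 scale (adjusted p = 0.0163, edgeR's quasi-likelihood test with Benjamini-Hochberg adjustment). It had 25.2 ± 5.72 CPM in FOXP3 (SD, n = 5), 63.7 ± 28.2 CPM in WT Treg and 14.5 ± 4.98 CPM in LNGFR (SD, n = 3 each). The call was lost under 7 of 24 other settings. They included leaving out LNGFR code G2 or G3 or WT Treg code G4 or L1 (adjusted p = 0.101 to 0.170, edgeR). FOXP3 against WT Treg gave -1.37 ± 0.33 and was not called (adjusted p = 0.0842), but was called under 8 of 23 other settings, among them DESeq2 (adjusted p = 0.00541), limma (adjusted p = 0.000242) and without E2 alone (-1.66, adjusted p = 0.0283). Without E2, G1 and N3, Itga6 was called in FOXP3 against WT Treg (-1.54, adjusted p = 0.000186) and against LNGFR (0.68, adjusted p = 0.0275, edgeR). DESeq2 called 0, 2 and 2 of the 11 genes and limma 1, 2 and 3 in FOXP3 against LNGFR, WT Treg against LNGFR and FOXP3 against WT Treg. The median log2 fold changes of the list were 0.19, 0.41 and -0.32 for FOXP3 against LNGFR, WT Treg against LNGFR and FOXP3 against WT Treg.

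Of 4 tested of 5 other beta chains, 2 were called. Itgb8, the partner of alpha V that activates TGF-beta, fell in FOXP3 against WT Treg by 1.75 ± 0.30 on the log2 scale (adjusted p = 0.0275), while FOXP3 against LNGFR gave 1.59 ± 0.34 without being called (adjusted p = 0.0623, edgeR's quasi-likelihood test with Benjamini-Hochberg adjustment). FOXP3 codes had 9.25 to 20.9 CPM, WT Treg codes 39.9 to 55.3 CPM and LNGFR codes 3.20 to 5.38 CPM, so the 3 groups did not overlap. The difference between FOXP3 and LNGFR was called under 9 of 23 other settings, among them DESeq2 (adjusted p = 0.00509), limma (adjusted p = 0.0105), without E2, G1 and N3 (adjusted p = 0.00530), without E2 alone (adjusted p = 0.0361) and without N3 alone (adjusted p = 0.0273). Itgb8 also rose in WT Treg against LNGFR, by 3.34 ± 0.39 (adjusted p = 0.000797, edgeR). Itgb3, the beta chain of the vitronectin receptor, fell in WT Treg against LNGFR by 1.69 ± 0.38 (adjusted p = 0.0452, edgeR), with 22.4 ± 2.49 CPM in WT Treg and 73.3 ± 27.8 CPM in LNGFR. The Itgb8 call in FOXP3 against WT Treg was lost under 9 of 23 other settings. They included leaving out any 1 of F1, F5, N2, G2, G3, E2 and L1 (adjusted p = 0.0557 to 0.0905, edgeR). The Itgb3 call was lost under 11 of 24 other settings. They included leaving out any 1 of F1, F2, F5, G2, G3, E2, G4 and L1 (adjusted p = 0.0670 to 0.273, edgeR). Without E2, G1 and N3, Itgb3 was also called in FOXP3 against WT Treg (1.31, adjusted p = 0.00832, edgeR). DESeq2 called 1, 3 and 3 of the 4 genes and limma 1, 2 and 2. Median log2 fold changes of the 4 genes were -0.72, -0.77 and -0.25 in the same order of comparisons.

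The 22 tested of 23 genes that activate integrins from inside the cell, such as talin and kindlin, held 0 genes called by edgeR in any comparison, and their medians were 0.09, -0.06 and 0.14. At an unadjusted p under 0.05 there were 1, 1 and 4 of them in FOXP3 against LNGFR, WT Treg against LNGFR and FOXP3 against WT Treg. DESeq2 called 0, 0 and 2 and limma 0, 0 and 4. The 4 of 22 in FOXP3 against WT Treg, beside 16.5% of all genes, were Rap1gap2 (log2 fold change 1.75) and Rasgrp2 (1.05), and with negative values Rasgrp1 (-0.83) and Sipa1 (-0.95). Of 14 ligands of the 10 proteins, which come mainly from other cells, 7 were tested and 0 called by edgeR in any comparison, with medians of -0.41, -0.01 and -0.43. At an unadjusted p under 0.05 there were 1, 3 and 1 of these 7, beside 10.3%, 14.8% and 16.5% of all genes, DESeq2 called 0, 1 and 0, and limma 0, 2 and 0.

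Enzymes and carriers of selectin ligands held 1 called gene among 13 tested of 14. Fut7, the fucosyltransferase that completes the selectin-binding sugar on PSGL-1, rose in FOXP3 against LNGFR by 2.01 ± 0.39 on the log2 scale (adjusted p = 0.0418, edgeR's quasi-likelihood test with Benjamini-Hochberg adjustment). It had 104, 124, 118, 129 and 38.1 CPM in FOXP3 codes F1, F2, F5, N2 and N3, 37.5 to 57.0 CPM in WT Treg codes and 19.7 to 32.2 CPM in LNGFR codes. All FOXP3 codes lay above the LNGFR codes, and N3 fell among the WT Treg codes. The call was lost under 11 of 23 other settings. They included leaving out any 1 of F1, F2, F5, N2, G1, G2, G3, G4 and L1 (adjusted p = 0.0662 to 0.304, edgeR). FOXP3 against WT Treg gave 1.19 ± 0.38 and was not called (adjusted p = 0.128), but was without E2, G1 and N3 (1.32, adjusted p = 0.00346, edgeR). In FOXP3 against LNGFR, WT Treg against LNGFR and FOXP3 against WT Treg, DESeq2 called 2, 1 and 3 of the 13 genes and limma 5, 3 and 4, where edgeR called 1, 0 and 0. The medians of the list were 0.02, -0.26 and 0.62.

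Of 7 tested of 13 genes of retinoic acid signalling, 1 was called. Dhrs3, a retinaldehyde reductase that is itself induced by retinoic acid, rose in WT Treg against LNGFR by 2.24 ± 0.42 on the log2 scale (adjusted p = 0.0184, edgeR's quasi-likelihood test with Benjamini-Hochberg adjustment). It had 9.0 ± 2.65 CPM in FOXP3 (SD, n = 5), 22 ± 6.48 CPM in WT Treg and 4.42 ± 1.80 CPM in LNGFR (SD, n = 3 each). The call was lost under 9 of 24 other settings. They included leaving out LNGFR code G2 or G3 or WT Treg code G4 or L1 (adjusted p = 0.0745 to 0.125, edgeR). Among them too were library 1 alone (adjusted p = 0.119), library 2 alone (adjusted p = 0.542) and the fit without the weak libraries (adjusted p = 0.0810, edgeR). DESeq2 called 0, 1 and 4 of the 7 genes and limma 0, 3 and 3, where edgeR called 0, 1 and 0, in FOXP3 against LNGFR, WT Treg against LNGFR and FOXP3 against WT Treg. The medians of the list were 0.42, 0.47 and -0.43.

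Among 14 tested of 15 genes reported to regulate Gpr15 or Itgae, Tgfbr1, the type I receptor of TGF-beta, was the 1 called. It rose in WT Treg against LNGFR by 1.65 ± 0.24 on the log2 scale (adjusted p = 0.00449, edgeR's quasi-likelihood test with Benjamini-Hochberg adjustment), with 37.1 ± 4.57 CPM in FOXP3, 78.2 ± 7.58 CPM in WT Treg and 24.9 ± 2.01 CPM in LNGFR. The call was lost under 7 of 24 other settings. They included leaving out LNGFR code G2 or G3 or WT Treg code G4 or L1 (adjusted p = 0.0591 to 0.120, edgeR). FOXP3 against WT Treg gave -1.08 ± 0.21 and was not called (adjusted p = 0.0519), but was called under 12 of 23 other settings, among them DESeq2 (adjusted p = 3.94e-08), limma (adjusted p = 0.000303), without E2, G1 and N3 (adjusted p = 0.000778), without E2 alone (adjusted p = 0.0356) and without G1 alone (adjusted p = 0.0166). DESeq2 called 0, 1 and 2 of the 14 genes and limma 0, 1 and 3 in the 3 comparisons. Ahr, the ligand-activated factor that binds the Gpr15 locus in T cells, had 14.2 ± 3.89 CPM in FOXP3, 13.2 ± 4.54 CPM in WT Treg and 19.2 ± 4.79 CPM in LNGFR and was not called. The medians of the list were -0.14, 0.12 and -0.30.

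The 12 genes of lymph node retention and exit, all tested, held 1 called gene. Cxcr4, the receptor for CXCL12, rose in WT Treg against LNGFR by 1.85 ± 0.38 on the log2 scale (adjusted p = 0.0323) and fell in FOXP3 against WT Treg by 2.10 ± 0.32 (adjusted p = 0.0168, edgeR's quasi-likelihood test with Benjamini-Hochberg adjustment). It had 8.75 ± 1.46 CPM in FOXP3, 36.7 ± 12.7 CPM in WT Treg and 10.7 ± 5.62 CPM in LNGFR. The WT Treg call was lost under 11 of 24 other settings and the FOXP3 call under 3 of 23. For WT Treg these included leaving out any 1 of F2, F5, N2, G2, G3, G4 and L1 (adjusted p = 0.0521 to 0.212, edgeR). The FOXP3 call was lost without F5, N2 or L1 (adjusted p = 0.0537 to 0.0557, edgeR). Ccr7, the receptor that keeps T cells in lymph nodes, had 216 ± 93.8 CPM in FOXP3, 218 ± 81.9 CPM in WT Treg and 263 ± 169.6 CPM in LNGFR and was not called, and it was chosen after its values were seen. DESeq2 called 1, 1 and 2 of the 12 genes and limma 1, 2 and 3 in the 3 comparisons. The medians of the list were 0.29, 0.07 and 0.34.

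Over the 11 codes, genes whose log2 CPM lay near to that of Gpr15 included Hbs1l (Pearson r = 0.952) and Arrdc1 (0.947). Those nearest to Ccr9 were Tbc1d30 (r = 0.923), Rnf43 (0.920) and Tgfbr1 (0.914), and those next to Haspin for Itgae were Gpld1 and Brd8 (both 0.974). Among the 10 genes, Gpr15 and Itgae correlated at r = 0.889 over 11 codes and 0.818 over the 9 codes other than E2 and G1, while Gpr15 and Ccr9 correlated at 0.401 and 0.387. These values describe codes that share libraries, depth and group differences.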

How the data were processed

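RNA was measured in 22 Smart-seq libraries of sorted mouse CD4+ T cells. The authors deposited whole-number read counts by gene symbol, 1 column a library, with totals that differ between libraries. The submitters' processing notes name the build mm10 (GRCm38) and the tools STAR 2.7.3a and featureCounts of Subread 2.0.0. Annotation, strand setting and the treatment of multi-mapping reads: not given in the sources used here. Groups came from the titles, and the counts of the 2 libraries of a code were summed.

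The test was edgeR 4.0.16's quasi-likelihood test in R 4.3.3 (robust, TMM, filterByExpr), with the 3 groups in 1 fit of 15462 genes and Benjamini-Hochberg adjusted p under 0.05 (common biological coefficient of variation 0.491). CPM are per 1e+06 of the TMM-scaled total. SE is the absolute log2 fold change over the square root of F, and 95% intervals use the test's t distribution. Intervals cover the spread between codes, and PCR copies are counted as reads. Likeness of patterns is Pearson's r of log2 CPM with a prior count of 2, over genes with a mean of at least 10 CPM. Of the 55011 symbols, 52936 matched GENCODE M21, which gave positions and exon lengths.

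The text names all 10 genes, Foxp3, every called gene of 8 lists (111 entries), up to 3 more per list and comparison by smallest p, and the nearest genes by pattern. Some genes that this rule names are not reported here. The members, lists and tests were chosen with earlier results of these data known. Alternatives were other scalings and filters, DESeq2 1.42.0 (on every gene with a count), limma 3.58.1 (voom with quality weights), single libraries, a block by code number, and fits without weak libraries or each code. The edgeR steps were tested on simulated data.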

Additional observations from a re-analysis of the deposited data

Results flagged for a closer look

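Fut7, the fucosyltransferase that completes selectin-binding sugars, had 38.1 CPM in FOXP3 code N3, far from the other 4 FOXP3 codes, the nearest of which had 104 CPM and the highest 129 CPM. The gap to the nearest code was 0.728 of the group's range, above the critical value of 0.71. This was the only sample that stood apart among the 18 measures checked in the 5 FOXP3 codes, of which chance flags about 1 in 20. N3 also had the highest sum of B cell markers, at 9867 CPM, and its part in the low Fut7 value was not tested. Groups of 3 codes were not checked.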

How the results depend on the processing

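Genes called in FOXP3 against LNGFR, WT Treg against LNGFR and FOXP3 against WT Treg numbered 84, 201 and 40. They numbered 329, 1000 and 3615 with every gene that had a count, 366, 827 and 2929 by DESeq2 (also run on every gene that had a count), and 1033, 870 and 1049 by limma voom with quality weights. With only the 2 groups compared they numbered 184, 58 and 135, and without the 3 weak libraries (both of E2 and library 2 of G1) 250, 318 and 66. These libraries had the lowest totals, and leaving them out kept only G4 and L1 in WT Treg. Without E2, G1 and N3, codes picked by their values in these data, the genes called numbered 1565, 1125 and 1090. Without E2 and G1, a setting chosen after seeing the data, they numbered 320, 505 and 413, and with library 2 alone 39, 50 and 10. FOXP3 against WT Treg gave 63 with DESeq2's size factors in edgeR, 111 with at least 10 counts in 8 codes and 77 with library 1 alone, and codes starting with G alone gave 0 for WT Treg against LNGFR. Leaving out 1 code gave 14 (G2) to 273 (N3), 37 (L1) to 299 (E2) and 4 (L1) to 1230 (G4) calls.

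Of the 10 genes, FOXP3 against LNGFR had 1 called and 2 by DESeq2, by limma, without the weak libraries, without E2, G1 and N3, and without E2 and G1. Of all tested genes, the last 3 of these settings called 250 of 15362, 1565 of 14688 and 320 of 15054 in FOXP3 against LNGFR. Of the 10 genes it had 0 to 1 called with 1 code left out. WT Treg against LNGFR had 2 called, 1 with only the 2 groups (Ccr9) and 1 without E2 and G1 (Itgae, while Gpr15 and Ccr9 were lost), 0 with library 2 alone, and 0 to 2 with 1 code left out. It had 3 by DESeq2, by limma, without the weak libraries (318 of 15362 genes called) and without E2, G1 and N3 (1125 of 14688). With only the 2 groups, without E2 and G1 and with library 2, 58 of 13296, 505 of 15054 and 50 of 13010 genes were called. FOXP3 against WT Treg had 0 called, 2 with every gene that had a count, 1 with the stricter filter, 1 by DESeq2, 2 by limma and 1 without E2, G1 and N3. Of all genes, 3615 of 46911, 111 of 11904 and 1090 of 14688 were called with every gene that had a count, with the stricter filter and without E2, G1 and N3. Shares for DESeq2 and limma are given above.

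Of 700 values of single genes recomputed over 30 results, 595 kept direction and call, 22 lost and 17 gained a call, and 66 changed sign. The values that changed sign were at most 0.565 from 0 in the test as reported, and the smallest adjusted p among them was 0.126. In FOXP3 against LNGFR the log2 fold changes were, by limma, -0.053 for Itgal, -0.11 for Itgb2, -0.10 for Cd44 and 0.24 for Cxcr4. Without E2, G1 and N3 they were -0.093 for Itgb7, -0.11 for Itgal, -0.18 for Itgb2, -0.15 for Cd44 and 0.31 for Cxcr4. Without E2 and G1 they were -0.27 for Itgb7, -0.16 for Itgb1, -0.19 for Itgal, -0.25 for Itgb2, -0.16 for Cd44 and 0.23 for Cxcr4, and with library 1 alone -0.042 for Cd44 and -0.021 for Selplg. With 1 code left out, values ran from -0.43 to 0.54 for Itga4, -0.27 to 1.06 for Itgb7, -0.15 to 0.97 for Itgb1, -0.19 to 0.42 for Itgal, -0.24 to 0.45 for Itgb2, -0.16 to 0.41 for Cd44 and -0.30 to 0.23 for Cxcr4.

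In WT Treg against LNGFR, Cd44 gave -0.00285 with DESeq2's size factors, -0.024 with every gene that had a count, -0.00284 by DESeq2 and -0.063 with library 1 alone. Itgal gave -0.064 with every gene that had a count, -0.071 by limma, -0.058 without E2, G1 and N3 and -0.058 without E2 and G1. Itgb2 gave 0.12 without the weak libraries and 0.26 with G codes alone, and Selplg 0.073 with library 2 alone. With 1 code left out, values ran from -1.06 to 0.023 for Itgb1, -0.30 to 0.27 for Itgal, -0.50 to 0.18 for Itgb2, -0.26 to 0.38 for Cd44 and -0.70 to 0.031 for Selplg.

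In FOXP3 against WT Treg, Itgae gave 0.14 with every gene that had a count, 0.00475 without repeat-derived gene models and 0.055 with library 2 alone. Cd44 gave -0.13 by limma, -0.28 without the weak libraries, -0.27 without E2, G1 and N3 and -0.28 without E2 and G1. Itgal gave -0.13, -0.053 and -0.13 in the last 3 of these settings and -0.075 with library 1 alone, and Itgb2 gave -0.058 without the weak libraries and -0.058 without E2 and G1. With 1 code left out, values ran from -0.32 to 0.41 for Itgae, -0.13 to 0.40 for Itgal, -0.053 to 0.64 for Itgb2 and -0.28 to 0.41 for Cd44.

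The median of all genes ranged from -0.52 to 0.04, from -0.10 to 0.26 and from -0.98 to 0.05 over these settings, with -0.52, 0.26 and -0.98 by DESeq2. DESeq2 was run on the 46911 genes with a count, against 15462 in the test as reported, so its medians and calls also cover other genes. The cause of these changes was not tested. The codes of different groups share numbers (F1, G1 and L1, for example), but the labels do not say what these mark, and over all tested genes the deviations from the group means correlated at -0.29 to 0.098 between the 9 pairs of codes with the same number and at -0.39 to 0.40 between the other 30 pairs. With the number as a replicate block, an alternative chosen after seeing the data, 17, 16 and 1 genes were called, and 0, 0 and 0 of the 10. Precision is limited by the 3 to 5 codes per group and, for Gpr15 in LNGFR, by 94 counts.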
